A study of Mus musculus with 4 samples.

Results

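Interferon response genes were examined in LSK cells, the Lin-Sca-1+c-Kit+ fraction of mouse bone marrow that holds haematopoietic stem cells and early progenitors. The list of 42 genes covers interferon receptors, the factors that carry their signal and the genes these induce. Members were found by gene symbol on the array. Of the 42, 40 had a probe set annotated to that symbol alone and 39 also passed a filter on low values, among 18194 named genes of which 12680 passed. Isg15 and Ifi44 had no probe set annotated to 1 symbol and were not analysed here, and Mx2 lay below the filter. Xaf1 was left out of the list.

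Expression was measured on 4 Affymetrix arrays in 2 groups of 2. All mice were labelled C57BL/6, had been reconstituted with fetal liver cells and had then been sublethally irradiated at 6.5 Gy. The fetal liver cells were necdin null in one group and wild type in the other. The comparison asks how loss of necdin, a growth suppressor encoded by the imprinted gene Ndn, bears on gene expression in these irradiated cells. No unirradiated sample was analysed here, so the levels are those after irradiation only, and the sources used here do not state the time after it. The labels do not say whether an array held 1 animal or a pool, so p-values cover the spread of these arrays alone, part of which may be technical. The share of host cells left after reconstitution is not stated. Such arrays cannot tell fewer expressing cells from less RNA per cell.

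Type I interferons bind a receptor made of IFNAR1 and IFNAR2. Its kinases activate STAT2, which joins IRF9 in a complex that binds the interferon-stimulated response element (ISRE) in the promoters of target genes. Interferon gamma acts at another element, GAS. Stem cells keep part of this programme on without infection, and acute interferon can drive quiescent stem cells into cycle. Sca-1, 1 of the antigens by which LSK cells are sorted, is itself interferon-inducible. Its gene, Ly6a, had no probe set annotated to 1 symbol.

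The ISRE core was searched for in RefSeq promoters of build GRCm38.p6, each reaching from 250 bases before a gene's start to 50 after it. Of the 42 members, 34 had a promoter in the table. A match to the core, GAAA, any 2 bases, GAAA, on either strand was present in 16 of the 34 (47.1%), against 1079 of 27025 genes (3.99%). The GAS core, TTCNNNGAA, was matched in 12 of the 34 (35.3%), against 9.55% of genes. Both were searched on both strands, and a match is a description of the sequence only. Stretches around the matches are shown for 7 members that together cover the patterns described here: Ifit1, Ifit3, Gbp3 and Trim30a, with higher signals on both necdin null arrays, Oas3 and Cxcl10, each low on 1 necdin null array, and Igtp, whose groups overlapped. Each runs 5′ to 3′ along the gene's strand, with the ISRE matches in capitals.
Ifit1: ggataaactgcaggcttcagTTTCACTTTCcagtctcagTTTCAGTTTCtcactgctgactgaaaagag
Ifit3: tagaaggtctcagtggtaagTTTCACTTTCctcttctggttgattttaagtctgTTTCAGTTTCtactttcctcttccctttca
Gbp3: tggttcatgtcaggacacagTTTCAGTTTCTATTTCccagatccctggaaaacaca
Trim30a: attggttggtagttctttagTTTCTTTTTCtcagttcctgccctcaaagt
Oas3: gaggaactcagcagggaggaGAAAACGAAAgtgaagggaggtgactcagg
Cxcl10: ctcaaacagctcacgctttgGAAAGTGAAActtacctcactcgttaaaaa
Igtp: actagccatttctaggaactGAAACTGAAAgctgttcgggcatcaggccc
The Ifit1 stretch lies at chr19:34640765-34640833 and that of Ifit3 at chr19:34583353-34583436, both on the plus strand, as are Gbp3 at chr3:142559979-142560034 and Igtp at chr11:58199502-58199551. Trim30a at chr7:104465200-104465249, Oas3 at chr5:120777705-120777754 and Cxcl10 at chr5:92349073-92349122 are on the minus strand. The first match begins 104 bases before the start of Ifit1, 156 before that of Ifit3, 45 before Gbp3, 36 before Trim30a, 75 before Oas3, 213 before Cxcl10 and 34 before Igtp. Matches of Ifit1, Ifit3, Gbp3 and Trim30a are the same motif read on the other strand (TTTC, any 2 bases, TTTC).

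No member passed a limma adjusted p of 0.05 between the genotypes, nor did any gene of the whole table (0% of 12680). The members did not move as one: 22 were higher and 17 lower in the necdin null group, and their median difference on the log2 scale was 0.06, where 45.9% of all genes were higher and the median of all genes was -0.03. Iigp1 alone of the 39 was under an unadjusted limma p of 0.05, as were 3.02% of all genes. The limma adjusted p rounded to 1.00 for every member tested. For 11 of 39 members the arrays of the 2 groups did not overlap, against 30.5% of all genes. Of these 11, 9 were higher (Ifit1, Ifit3, Eif2ak2, Ifitm1, Trim25, Trim30a, Iigp1, Gbp3 and Tap1) and 2 lower (Mx1 and Psmb8), where 12.8% of all genes were apart and higher and 17.7% apart and lower. These counts moved with the scaling of the arrays, for the members and for all genes. With each array centred on its median, 4 members were apart and higher (Ifit1, Ifit3, Trim30a and Iigp1), against 7.42% of all genes, and 5 apart and lower (Ifnar1, Ifnar2, Mx1, Parp14 and Psmb8), against 23.2%. Of the 39 members 19 were then higher, against 35.8% of all genes, and the median was -0.02, against -0.11 for all genes. With 2 arrays against 2, the smallest two-sided p an exact permutation test allows is 0.33. The median was -0.04 without necdin null replicate 1, with 19 of 39 members higher, and 0.13 without necdin null replicate 2, with 28 of 39 higher.

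**Figure D1:**
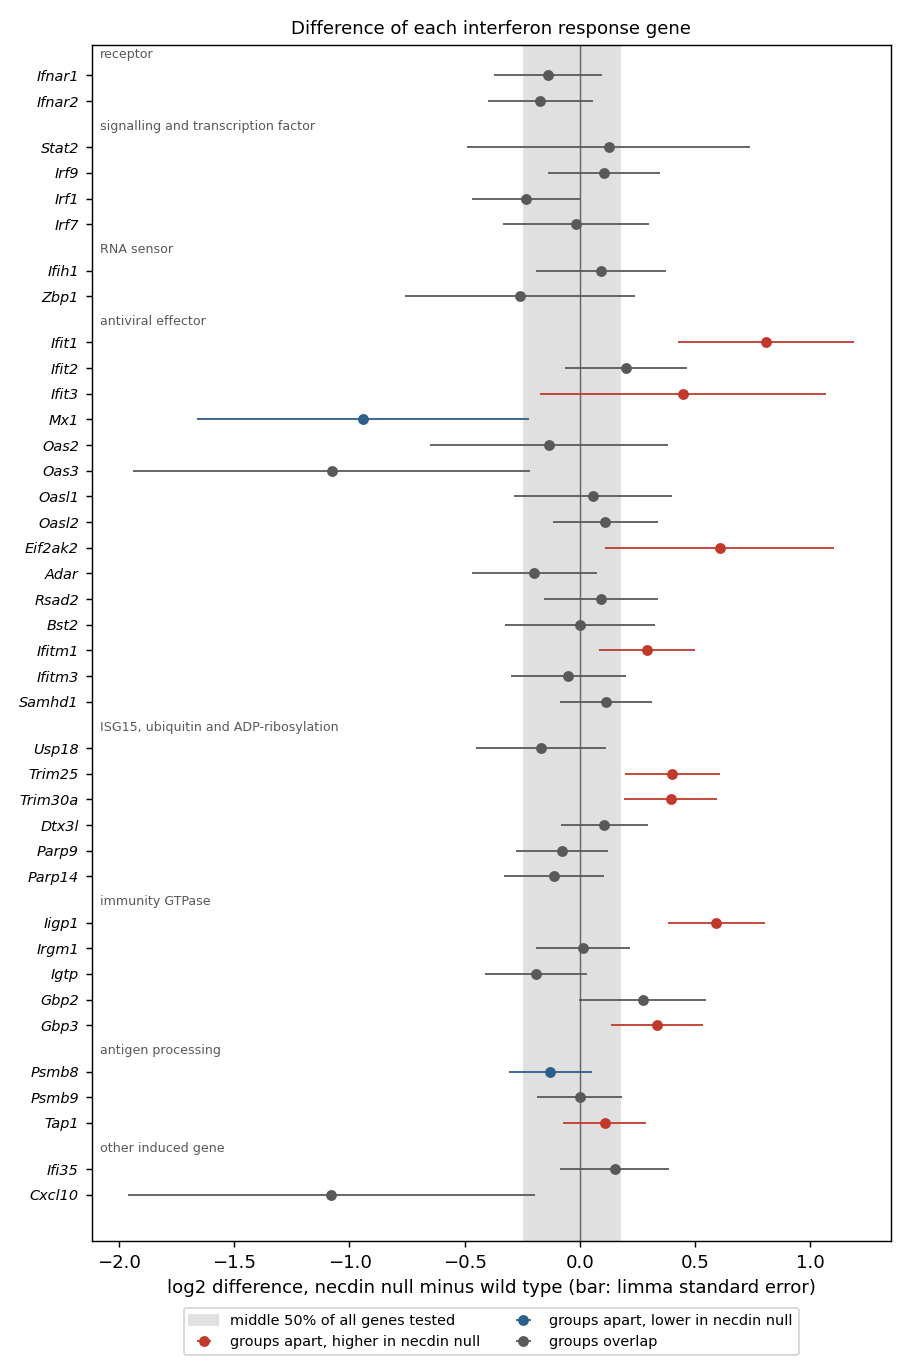
Log2 difference of the 39 members that passed the filter, necdin null minus wild type, grouped by role, with the limma standard error as a bar. The shaded band holds the middle 50% of all genes tested, from -0.24 to 0.18. Red points are members whose 2 necdin null arrays both lay above both wild type arrays, blue points the reverse. Most points lie in or near the band, and those farthest from 0, such as Oas3 and Cxcl10, have the longest bars.

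Both chains of the type I interferon receptor were measured well above the filter, which stands at a signal of 30.3. Signals here are MAS5 intensities on a linear scale, and since probe sets differ in brightness, they are compared between arrays and not between genes. Ifnar1 had signals of 619 and 708 in necdin null and 706 and 753 in wild type cells. The arrays lay close together, with the lowest in the necdin null group (difference -0.14 on the log2 scale, SE 0.24, where SE is the limma standard error). Ifnar2 had 1488 and 1351 in necdin null and 1342 and 1901 in wild type cells, where wild type replicate 2 stood above the other arrays (difference -0.17, SE 0.23). Of its 3 probe sets above the filter 1 pointed the other way (0.21), and without wild type replicate 2 the Ifnar2 difference turned to 0.08. The groups overlapped for both receptor genes, and were apart and lower for both after median centring. In what follows, signals are given for necdin null replicates 1 and 2 against wild type replicates 1 and 2.

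The factors behind the receptor showed no shared direction. Stat2, a subunit of the complex that binds the ISRE, was dim at 66.2 and 35.3 against 42.2 and 46.2 (difference 0.12, SE 0.62). Irf9, the DNA-binding partner that completes the complex, had 1411 and 948 against 1096 and 1054 (difference 0.11, SE 0.24). For both, necdin null replicate 1 was the highest array and necdin null replicate 2 the lowest, so the groups overlapped, and without necdin null replicate 1 the differences turned to -0.30 and -0.18. Irf1, a factor induced by interferon gamma and a tumour suppressor, had 3048 and 2072 against 3299.7 and 2649 (difference -0.23, SE 0.23). Replicate 2 was below replicate 1 in both groups, and without necdin null replicate 2 the difference turned to 0.04. Irf7, the factor that amplifies interferon production, had 355 and 336 against 295 and 414 (difference -0.02, SE 0.32). Here the wild type arrays were the lowest and the highest of the 4, and the sign turned with quantile normalization (0.01), without necdin null replicate 2 (0.02) and without wild type replicate 2 (0.22).

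**Figure D2:**
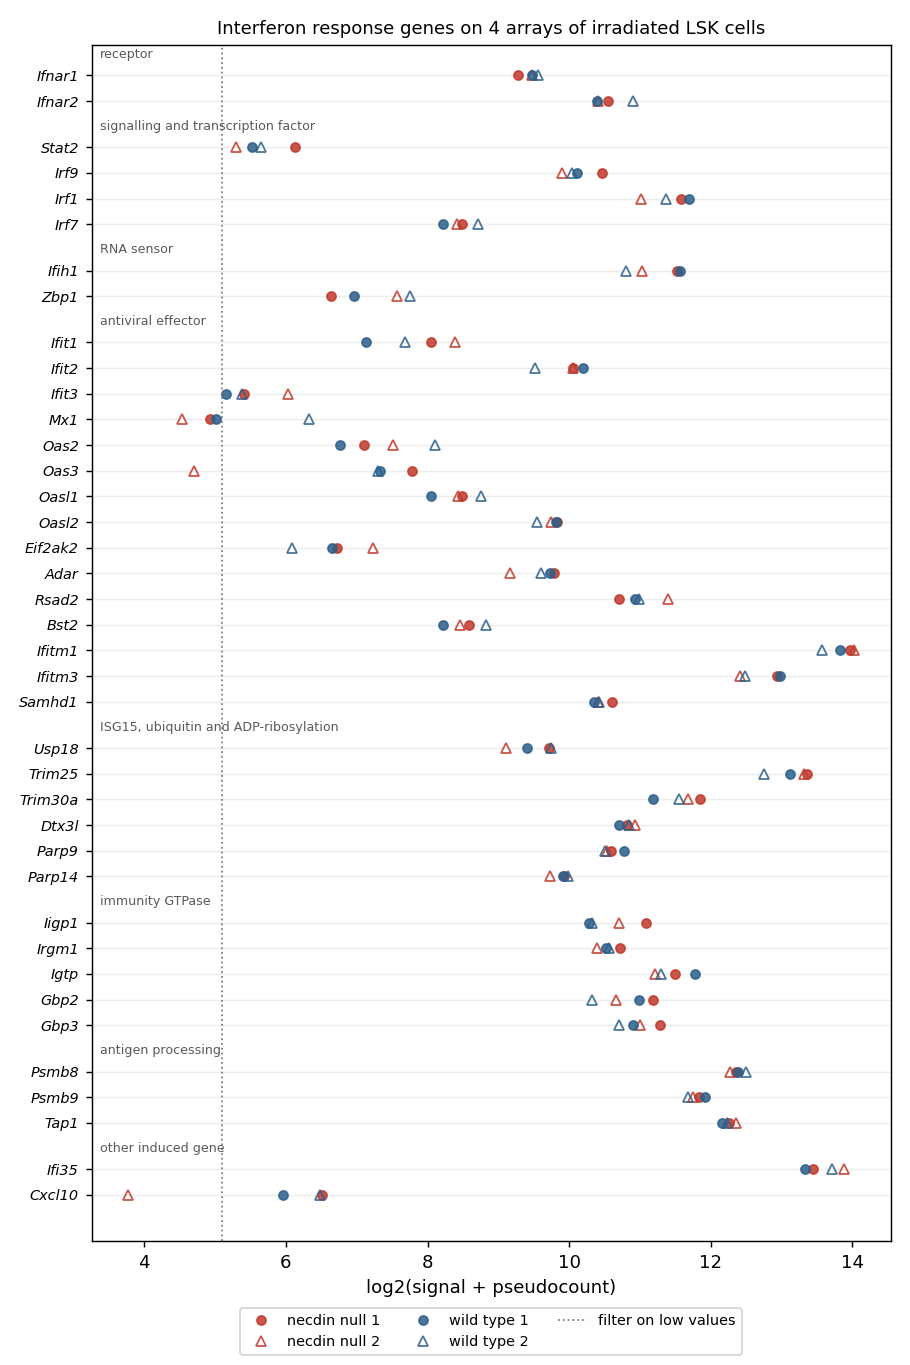
Level of each member on each array, as log2 of the signal plus 3.80, grouped by role. Red symbols are necdin null and blue wild type arrays, circles replicate 1 and open triangles replicate 2, and the dotted line is the filter on low values. Symbols of both colours are mixed for most members. Oas3 and Cxcl10 have 1 necdin null array far to the left of the others.

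The 2 nucleic acid sensors differed more between replicates than between genotypes. Ifih1, the sensor of long double-stranded RNA also called MDA5, had 2938 and 2076 against 3029.6 and 1775 (difference 0.09, SE 0.28). Zbp1, a sensor of Z-form nucleic acid that can trigger necroptosis, had 95.3 and 187 against 121 and 212 (difference -0.26, SE 0.50). Replicate 1 was above replicate 2 in both groups for Ifih1, and below it in both groups for Zbp1. Their signs were not stable: Ifih1 turned to -0.16 without necdin null replicate 1 and -0.29 without wild type replicate 2. Zbp1 turned to 0.21 and 0.13 in the same cases, and to 0.21 over the mean of its probe sets.

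Among the 15 antiviral effectors that passed the filter, 10 were higher and 5 lower in the necdin null group, and the median was 0.09. Ifit1, which binds viral RNA that lacks host cap methylation, had 261 and 330.0 against 136 and 202. Both necdin null arrays were above both wild type arrays, by 1.75-fold on the log2 scale used (difference 0.81, SE 0.38; limma adjusted p = 1.00). The difference kept its sign under every alternative run, though with groups apart leaving out 1 array could not turn it. Its lowest value was 0.53, without wild type replicate 1, and its highest 1.09, without wild type replicate 2. Ifit3, of the same gene family, had 38.5 and 61.5 against 31.9 and 37.8. Its groups were apart by a narrow gap near the filter (difference 0.45, SE 0.62). Ifit2, their neighbour on chromosome 19, had 1058 and 1059.8 against 1171 and 726, with the wild type arrays on either side of the necdin null pair (difference 0.20, SE 0.26).

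OAS enzymes make the short oligoadenylates that activate RNase L, and Oasl1 and Oasl2 encode their relatives. Oas3 had 215 and 22.3 against 157 and 154. A single array, necdin null replicate 2, set its value (difference -1.08, SE 0.86), which was 0.46 without that array and -2.61 without the other necdin null array. Oas2 varied most within the wild type pair, at 133 and 178 against 105 and 272 (difference -0.13, SE 0.52). Oasl1 had 355 and 342 against 261 and 429 and Oasl2 909 and 853 against 892 and 745. Their differences were 0.06 and 0.11, with groups that overlapped.

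Eif2ak2 encodes PKR, the kinase that halts translation on sensing double-stranded RNA. Its brightest probe set gave 102 and 146 against 96.2 and 64.4 (difference 0.61, SE 0.50), with the groups apart, though not after median centring. The other 2 probe sets of Eif2ak2 above the filter gave -0.01 and -0.20, and the mean over its probe sets was 0.13. Mx1, a dynamin-like GTPase that is defective in most laboratory strains, had 26.6 and 19.4 against 28.6 and 76.4. Only wild type replicate 2 was above the filter's signal of 30.3 there, and without it the difference of -0.94 was -0.29. Mx2 was at 8.64 and 11.3 against 8.29 and 12.0 and was not tested. Adar, which edits double-stranded RNA and keeps it from the sensors, had 879 and 569 against 849 and 776 (difference -0.20, SE 0.27), while its other 2 probe sets above the filter were at 0.41 and 0.54.

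The remaining 5 effectors differed by 0.29 or less in size. Rsad2, the radical enzyme viperin, had 1663 and 2699 against 1954 and 2024 (difference 0.09, SE 0.25), and its other 2 probe sets gave 0.40 each. Ifitm1, of a membrane protein family that blocks virus entry, had 15932 and 16658 against 14558 and 12172 (difference 0.29, SE 0.21). Its groups were apart but overlapped after median centring and after quantile normalization. Its relative Ifitm3 had 7835 and 5454 against 8030.4 and 5704, lower on replicate 2 than on replicate 1 by a like amount in both groups (difference -0.05, SE 0.25). Samhd1, which degrades deoxynucleotides, had 1557 and 1347 against 1302 and 1374, and all 4 of its probe sets above the filter pointed upward by 0.11 to 0.36. Bst2, the tetherin that holds budding virus at the membrane, had 379.9 and 349 against 294 and 449, where the wild type arrays were again lowest and highest.

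Genes of the ISG15, ubiquitin and ADP-ribosylation systems were 3 higher and 3 lower. Trim25, the ubiquitin ligase that activates the sensor RIG-I, had 10465 and 10225 against 8901 and 6888 (difference 0.40, SE 0.21; limma adjusted p = 1.00). Trim30a, a TRIM family relative, had 3678 and 3287 against 2332 and 3002 (difference 0.39, SE 0.20; limma adjusted p = 1.00). Both had groups apart. For Trim25, 2 of 3 probe sets above the filter were higher, and the groups overlapped after median centring. Both probe sets of Trim30a were higher, but the groups of the dimmer one overlapped, at 1642 and 1405 against 1584 and 1196 (difference 0.14). Usp18, the protease that removes ISG15 and dampens the receptor, had 834 and 546 against 675 and 853, with the arrays of the 2 groups interleaved (difference -0.17, SE 0.28). The partners Dtx3l and Parp9, which act together in DNA damage and interferon signalling, differed by 0.11 and -0.08. Parp14 differed by -0.11.

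Immunity-related and guanylate-binding GTPases attack the vacuoles of intracellular pathogens. Of 5 members, 4 were higher in the necdin null group, and the median was 0.27. Iigp1 had 2169 and 1661 against 1238 and 1280.3. Both necdin null arrays lay above a tight wild type pair, by 1.51-fold (difference 0.59, SE 0.21). The sign held under every alternative, between 0.12 and 0.78, though with groups apart leaving out 1 array could not turn it. The value of 0.12 came from its other probe set, whose signals of 809 and 605 in necdin null and 789 and 522 in wild type cells overlapped. Gbp3 had 2481 and 2035 against 1899.9 and 1671, also with groups apart (difference 0.33, SE 0.20), but overlapping after median centring. Gbp2 had 2322 and 1612 against 2018 and 1270.0 and Igtp 2870.2 and 2361 against 3498 and 2518. Replicate 2 was below replicate 1 in both groups for Gbp2, Gbp3 and Igtp, and the genotype differences were 0.27, 0.33 and -0.19. Irgm1, a regulator of the other GTPases that is known for its part in stem cell maintenance, had 1674 and 1338 against 1463 and 1503 (difference 0.01, SE 0.21).

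Antigen processing genes had the smallest standard errors of the role groups, 0.18 to 0.19, and differences from -0.13 to 0.11. Psmb8, a catalytic subunit of the immunoproteasome, had 5239 and 4942 against 5357 and 5783 (difference -0.13, SE 0.18), apart and lower. Psmb9, another such subunit, had 3649.9 and 3437 against 3851 and 3264, a difference of -0.0014. Tap1, a subunit of the peptide transporter that loads MHC class I, had 4879 and 5243 against 4582 and 4811 (difference 0.11, SE 0.18), apart and higher, but overlapping after median centring.

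Ifi35, an interferon-induced leucine zipper protein, had 11154 and 15135 against 10269 and 13346 (difference 0.15, SE 0.24). The chemokine gene Cxcl10, which draws T cells, had 87.7 and 9.83 against 58.6 and 85.3. As for Oas3, necdin null replicate 2 alone was low and set the value (difference -1.08, SE 0.88), which turned to 0.29 without that array. Oas3 and Cxcl10 were the only members with a difference of at least 1 on the log2 scale (2 of 39, against 4.52% of all genes). In both the groups overlapped. For Ifi35, replicate 2 was above replicate 1 in both groups, and the sign turned without necdin null replicate 2 (-0.07) and without wild type replicate 1 (-0.04).

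Differences between arrays of the same group were, at the median, larger than those between genotypes. The median size of the genotype difference over the 39 members was 0.15, while replicates differed by a median of 0.32 in each group, on the log2 scale. A genotype difference averages 2 arrays on each side, which makes it smaller than a difference between single arrays by construction. For all genes these values were 0.21, 0.32 and 0.31. The genotype difference exceeded both replicate differences for 9 of 39 members, against 18.8% of all genes. Necdin null replicate 1 had the higher signal of its pair for 27 of 39 members, that is, replicate 2 was above it for 30.8%, against 47.2% of all genes. Necdin null replicate 1 was the highest of the 4 arrays for 13 of 39 members (33.3%, against 19.8% of all genes) and the lowest for 3 (7.69%, against 21.3%). The median deviation of the members from their own 4-array mean was 0.10 on that array, -0.05 on necdin null replicate 2, -0.03 on wild type replicate 1 and -0.02 on wild type replicate 2.

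**Figure D3:**
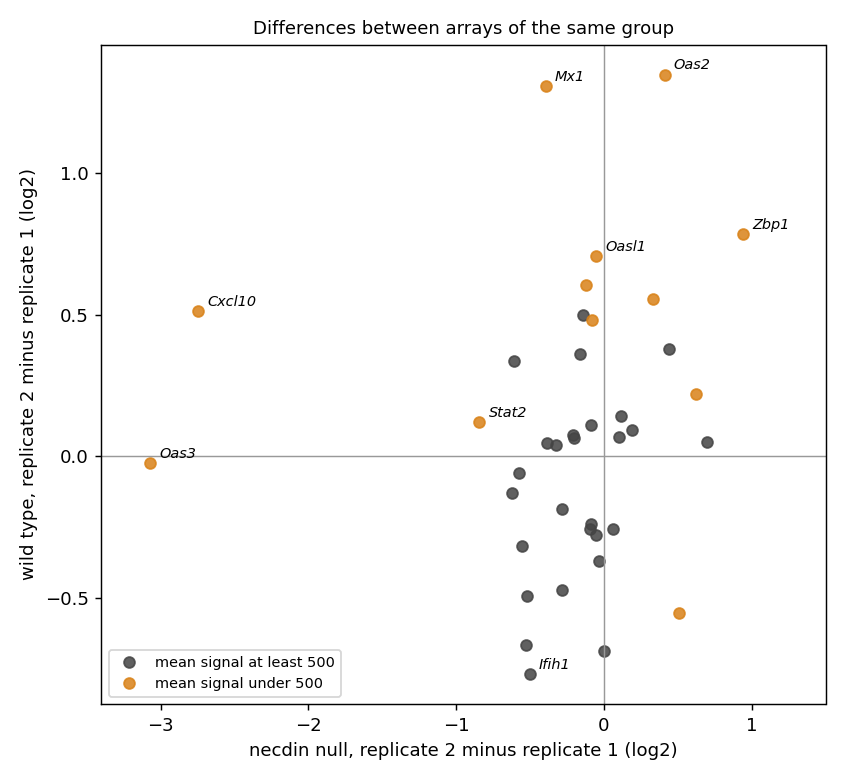
Difference between the arrays of a group for each member, replicate 2 minus replicate 1 on the log2 scale, in necdin null (horizontal axis) and wild type cells (vertical axis). Each point is 1 member, coloured by its mean signal. Most points lie left of 0, where necdin null replicate 1 was the brighter array. Orange points, the dimmer members, lie mostly above 0, where wild type replicate 2 was the brighter array.

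Brightness separated the members. Among the 27 with a mean signal of at least 500 the differences ran from -0.23 to 0.59, with a median size of 0.14, and only Iigp1 reached 0.5. Among the 12 dimmer members they ran from -1.08 to 0.81, with a median size of 0.35, and 5 reached 0.5. All genes tested showed the same gradient, with median sizes of 0.15 and 0.33, and 18.5% of them reached 0.5, against 6 of 39 members. Members apart by at least 0.5 were 3 higher (Ifit1, Eif2ak2 and Iigp1) and 1 lower (Mx1), against 4.71% and 6.66% of all genes. For 10 of the 12 dimmer members wild type replicate 2 was above wild type replicate 1, against 57.4% of all genes under 500, and wild type replicate 1 was the highest array for none of the 12. Irf7, Zbp1, Oas2, Oasl1 and Bst2 were among these 10.

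**Figure D4:**
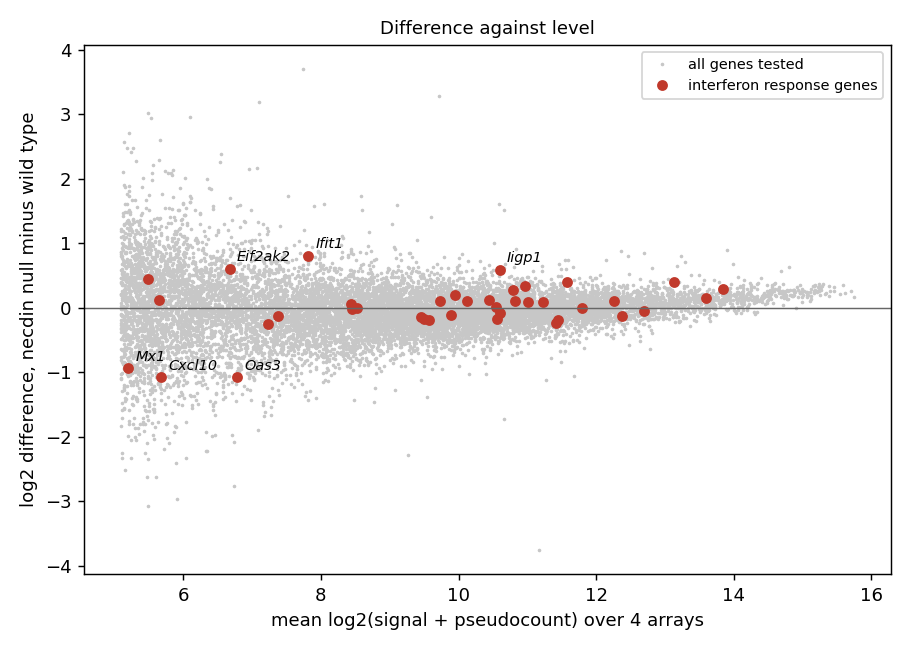
Genotype difference against mean level for all genes tested (grey) and the 39 members (red). Both axes are on the log2 scale, and the members with a difference of at least 0.5 in size are named. The spread of all genes widens toward low levels, and 5 of the 6 named members lie on that side, with Iigp1 the exception.

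Lineage markers differed between the same arrays. The summed signal of 10 neutrophil markers was 54367 and 140361 in necdin null replicates 1 and 2 against 33612 and 95584 in wild type replicates 1 and 2. That of 8 monocyte and macrophage markers was, in the same order, 9012 and 15773 against 7299 and 13443, and that of 11 dendritic cell markers, a list that shares Bst2 with the members, was 11571 and 17795 against 9255 and 16710. Replicate 2 was thus higher in both groups for all 3 sums, and the groups overlapped. Lyz2 made up most of each monocyte and macrophage sum, at 6751 and 12613 against 5790 and 8401. Irf8, Flt3 and Tcf4 together made up most of each dendritic cell sum, with Irf8 at 3595 and 8505 against 2496 and 7209. Flt3 is also on the stem and progenitor list, so this sum is no measure of dendritic cells alone. By gene, replicate 2 was higher in necdin null cells for all 10 neutrophil markers above the filter. The same held for only 4 of 7 monocyte and macrophage and 5 of 9 dendritic cell markers. In wild type cells these counts were 9, 7 and 7. The other lineage lists spread less between replicates except for the B lineage, at 1363 and 1763 in necdin null and 1290.5 and 2752 in wild type cells. The sum of 9 stromal and endothelial markers was lower on both necdin null arrays, at 2478 and 2391 against 2792 and 2650.5. A single gene, Pdgfrb, made up most of each sum, at 2004 and 1964 against 2344 and 2134. Of the 6 markers of this list above the filter, 2 were higher and 4 lower in the necdin null group. Within the list the chemokine gene Cxcl12 went the other way from the sum, at 61.6 and 48.3 against 14.1 and 25.4. So did Cdh5 below the filter, at 49.8 and 38.6 against 19.6 and 16.4. Only 2 of 8 T and NK markers were above the filter, and Gzma below it was at 5.12 and 7.51 against 28.6 and 99.4. The part of these cells in the signals of the members was not tested. All 13 stem and progenitor markers measured were above the filter. Kit, the receptor by which the cells are sorted, had 6049 and 3744 in necdin null and 6617 and 3976 in wild type cells. Necdin null replicate 2 also had the highest Gapdh 3' to 5' ratio, 15.8 against 9.96 to 11.7 on the other arrays, and 1 Ndn probe set read 1.74 and 4.86 without necdin and 504 and 329 with it. Sex-linked signals differed within groups and were also apart between them. Xist, transcribed from the inactive X chromosome, was at 4841 and 76.8 in necdin null and 9930 and 7182 in wild type cells, and the Y-linked Eif2s3y at 2273 and 2987 and at 32.6 and 1974. Necdin null replicate 1 and wild type replicate 2 thus held both signals. Xist was lower and Eif2s3y higher on both necdin null arrays, so these signals were not balanced between the genotypes. The part of sex in the genotype differences was not tested.

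The rest of the pathway was followed in 101 further genes, of which 81 had a probe set of 1 symbol and 70 passed the filter. None of the 70 passed the threshold, and none had an unadjusted limma p under 0.05. There 31 were higher and 39 lower with necdin absent, at a median of -0.03, as for all genes. Of the 8 measured interferon ligand genes, 6 were below the filter, and interferon beta (Ifnb1) was near it at 40.9 and 46.9 in necdin null and 35.0 and 45.0 in wild type cells. Groups were apart for 5 of the 11 genes below the filter, 4 of them higher. With no filter, 31.1% of all genes were apart, 14.2% higher and 16.8% lower, but these shares also count the genes above the filter. Several of the signals that follow lie near the 3.80 added before taking logs. Ifna4, an interferon alpha gene, was at 4.32 and 25.04 against 2.50 and 2.59, and Ifnlr1, a receptor chain of interferon lambda, at 36.7 and 61.0 against 2.65 and 13.5. Ifna2 was at 7.27 and 7.79 against 5.25 and 6.24, and Ifng, which encodes interferon gamma, at 10.02 and 6.91 against 5.71 and 2.22. Irf4, a factor of lymphoid cells, was lower, at 23.01 and 12.7 against 33.5 and 33.5. Groups were apart for 16 of the 70, with 7 higher and 9 lower, where 30.5% of all genes had groups apart. Of these 16, Slfn5 of the Schlafen family alone reached a difference of 1 in size, at 47.2 and 12.3 against 59.9 and 61.9 (-1.17, SE 0.73), and 1.61% of all genes were apart and lower by as much. Mavs, the mitochondrial adaptor of RNA sensors, had -0.55, and Irf2, a repressor of interferon targets, had 0.64, both with groups apart. Nlrc5, which drives MHC class I genes, had -0.37. Among 9 MHC class I presentation genes, 2 were higher and 7 lower.

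The genotype difference was also read by promoter motif. Of the 15 tested members with an ISRE match, 11 were higher and 4 lower, at a median of 0.09 and a range from -1.08 to 0.81. Of the 17 tested members with a promoter and no match, 10 were higher and 7 lower, at a median of 0.11 and a range from -0.23 to 0.40. Groups were apart and higher for 5 members with a match (Ifit1, Ifit3, Eif2ak2, Trim30a and Gbp3) and for 3 without (Ifitm1, Trim25 and Tap1), against 12.8% of all genes. They were apart and lower for none with a match and for 1 without (Psmb8), against 17.7% of all genes. Mx1, the other member apart and lower, had no promoter to search and is in neither subset. For the GAS core, 5 of the 12 members with a match were higher and 7 lower, at a median of -0.09. Of the 20 with a promoter and no GAS match, 16 were higher and 4 lower, at a median of 0.11. Groups were apart for 1 higher (Eif2ak2) and 1 lower member (Psmb8) with a GAS match, and for 7 higher members without. The differences between these subsets were not tested. The promoter of Iigp1 was not used here. The 7 stretches printed above include Ifit1 at 0.81 and Cxcl10 at -1.08, the ends of the range of members with an ISRE match. The value of Cxcl10 was set by necdin null replicate 2 alone, and its groups overlapped.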

How the data were processed

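The deposited values are MAS5 signal intensities on a linear scale, 1 column per array, per the submitters' processing notes, which give no version. On each array the authors' values average 500.004 once 2% of the 45101 probe sets are trimmed from either end. The platform annotation gave 34958 probe sets 1 symbol and 932 several. Signals were analysed as log2(signal + 3.80), the pseudocount being the 10th percentile, so differences understate changes of low genes. Each gene took its brightest probe set by mean log2 signal, and genes below the 40th percentile (log2 5.09) were dropped. Genotypes were compared in limma 3.58.1 under R 4.3.3 (lmFit, eBayes with trend, two-sided, Benjamini-Hochberg over 12680 genes). The code was tested on simulated data. Alternatives concerned pseudocount, filter, scaling, variance trend, probe set choice, a replicate block and each array left out. By rule, signals are given for receptors, signalling factors, members apart by at least 0.5, the 2 largest differences per role, Kit, and other pathway or marker genes apart by at least 1. Further genes were added after their values were seen. Members and lists were chosen with earlier results of these data known. Replicate numbers, from the labels, were not taken to pair arrays (2 pairs, correlation of deviations 0.11).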

Additional observations from a re-analysis of the deposited data

How the results depend on the processing

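The count of called genes, 0, was 3 with the replicate block and 0 to 4 when leaving out 1 array. It stayed 0 under the other alternatives, and no member was called under any (lowest limma adjusted p of a member 0.17, without necdin null replicate 1). The replicate block leaves every member's difference as it was by construction, since each group holds both replicate numbers. The members' median of 0.06 was -0.024 with median centring and -0.043 to 0.13 when leaving out 1 array, and kept its sign under all other alternatives. That of the other pathway genes, -0.03, was -0.11 with median centring, -0.074 without _s_at, _x_at and _a_at probe sets and -0.10 to -0.00016 when leaving out 1 array. Members with groups apart, 11, were 7 without those probe sets, where 28 members were tested and 31.6% of all genes were apart. They were 23 to 26 of 39 when leaving out 1 array, where 3 arrays overlap less often by construction and 59.9% to 68.7% of all genes were apart. The filter, variance trend and replicate block settings cannot change a member's difference. Leaving out 1 array cannot turn the sign of a member with groups apart. Among the alternative values of 20 members, 250 kept their sign, in part by construction, and 16 did not. These were Zbp1 with the mean of probe sets (0.21), Irf7 with quantile normalization (0.011), and values with 1 array left out, which ranged from -0.42 to 0.079 for Ifnar2, -0.30 to 0.55 for Stat2, -0.18 to 0.39 for Irf9, -0.51 to 0.044 for Irf1, -0.26 to 0.22 for Irf7, -0.29 to 0.48 for Ifih1, -0.73 to 0.21 for Zbp1, -2.61 to 0.46 for Oas3, -0.070 to 0.37 for Ifi35 and -2.45 to 0.29 for Cxcl10. The cause was not tested. With 2 arrays a group, precision is limited by their number.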
